A study of Mus musculus with 9 samples.

Results

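The genes described here were the mouse zinc finger genes with symbols from Zfp900 to Zfp999. Symbols were matched to the Ensembl identifiers of the count table through the GENCODE M21 annotation of mm10, which gave 64 members of 41128 genes in the table. RNA was sequenced from dorsal telencephalon, the part of the forebrain that forms the cortex, dissected from newborn (P0) pups of strain B6:129SF2/J. The labels give 3 genotypes of Tcf4, which encodes a basic helix-loop-helix factor that binds E-boxes: wild type (WT), heterozygote (Het) and knockout (KO), with 3 libraries each and no treatment. The allele, the part of Tcf4 that it removes and any Cre driver were not given in the sources used here. The labels do not say whether the libraries came from separate pups or litters, so p-values measure only the spread between these libraries, which may in part be technical.

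Most genes of this series encode KRAB zinc finger proteins. Their tandem C2H2 fingers bind DNA, each finger contacting a few bases, and the KRAB domain recruits the scaffold protein Trim28, which brings the histone H3 lysine methyltransferase Setdb1, heterochromatin proteins and histone deacetylases to the bound site. Many of them silence retrotransposons, and a few, such as Zfp57, keep the methylation of imprinted regions. The family grew by tandem duplication, so its genes lie in clusters of near copies.

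The members were arranged in this way. Neighbouring members at most 1 Mb apart formed 5 clusters of 3 or more members that held 43 of the 64, and the other 21 lay singly or in pairs. The clusters were on chromosome 2 (10 members, 175372436 to 178078476), chromosome 4 (16 members, 145510759 to 147848366), chromosome 7 (4 members, 42579783 to 43192109), chromosome 8 (3 members, 69209038 to 69749970) and chromosome 17 (10 members, 21567008 to 22867134), all on mm10. All but 1 member were annotated as protein coding, the exception being Zfp939, a transcribed unprocessed pseudogene. In the longest open reading frame of each member's transcripts, 58 of 64 had at least 5 C2H2 fingers (median 11, highest 21) and 55 matched a KRAB pattern.

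One stretch of sequence shows how alike the members are. The 31-base word below, the one found in the most members, lay in the reading frames of 21 of 64 members and in transcripts of only 39 genes of 55450. Its capitals mark the 15 bases that encode the linker between 2 neighbouring fingers.
shared word: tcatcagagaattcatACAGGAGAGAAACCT
Such words limit which gene a read can be assigned to. Of each tested member's 31-base words, a median of 26.7% also occurred in transcripts of other genes, against 1.48% for all genes tested. How reads with several matches were counted was not given in the sources used here, so values of members with many shared words are uncertain.

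The start sites of the members also shared sequence. RefSeq promoters (GRCm38.p6, 250 bases before to 50 after the start of the gene) were at hand for 54 members. Of all 12-base words, counted on both strands, CTGCCAGTCAGA lay in the most member promoters, 16 of these 54 (29.6%), and in 0.198% of all 32817 promoters. Since the word was chosen as the most frequent one in the members, and near copies share sequence, its share is a description. In all 16 it lay on the strand of the gene, 18 bases downstream of a CCAAT, and began 9 to 89 bases before the start of the gene. CCAAT on either strand lay in 41 of the 54 member promoters (75.9%) against 37.4% of all promoters. The word was spread over paralogous groups on different chromosomes, with 9 of its 16 genes in the chromosome 2 cluster, all 4 members of the chromosome 7 cluster, Zfp951 and Zfp932 on chromosome 5, and Zfp950 on chromosome 19. The promoters below are those of Zfp951, the member with the highest fold change, of 3 more that carry the word, and, for contrast, of Zfp984 and Zfp949, which lack it and on which later results turn. They read 5′ to 3′ along the strand of the gene, and capitals mark CCAAT (or ATTGG) and the 12-base word.
Zfp951: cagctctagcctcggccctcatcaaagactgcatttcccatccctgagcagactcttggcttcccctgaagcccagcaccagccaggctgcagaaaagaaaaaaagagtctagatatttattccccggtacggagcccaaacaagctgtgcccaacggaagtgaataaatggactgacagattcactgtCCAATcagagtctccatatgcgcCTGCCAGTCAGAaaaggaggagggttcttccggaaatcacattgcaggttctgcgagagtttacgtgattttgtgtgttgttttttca
Zfp950: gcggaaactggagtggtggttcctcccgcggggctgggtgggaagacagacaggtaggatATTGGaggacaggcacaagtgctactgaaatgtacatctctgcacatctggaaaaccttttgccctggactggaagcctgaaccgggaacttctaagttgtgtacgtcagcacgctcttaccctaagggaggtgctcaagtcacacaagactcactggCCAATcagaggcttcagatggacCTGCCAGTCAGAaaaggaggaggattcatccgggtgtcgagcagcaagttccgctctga
Zfp976: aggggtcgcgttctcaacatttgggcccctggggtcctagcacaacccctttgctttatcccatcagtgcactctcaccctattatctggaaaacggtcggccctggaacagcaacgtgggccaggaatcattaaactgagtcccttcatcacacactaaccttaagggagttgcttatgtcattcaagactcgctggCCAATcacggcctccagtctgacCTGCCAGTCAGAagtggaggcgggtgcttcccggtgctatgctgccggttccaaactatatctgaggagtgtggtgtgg
Zfp932: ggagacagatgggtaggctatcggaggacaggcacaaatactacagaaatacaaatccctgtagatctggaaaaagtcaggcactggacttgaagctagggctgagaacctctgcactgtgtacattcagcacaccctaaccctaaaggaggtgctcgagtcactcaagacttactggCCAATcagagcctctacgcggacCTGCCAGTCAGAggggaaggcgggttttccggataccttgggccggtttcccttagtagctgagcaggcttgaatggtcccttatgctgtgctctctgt
Zfp984: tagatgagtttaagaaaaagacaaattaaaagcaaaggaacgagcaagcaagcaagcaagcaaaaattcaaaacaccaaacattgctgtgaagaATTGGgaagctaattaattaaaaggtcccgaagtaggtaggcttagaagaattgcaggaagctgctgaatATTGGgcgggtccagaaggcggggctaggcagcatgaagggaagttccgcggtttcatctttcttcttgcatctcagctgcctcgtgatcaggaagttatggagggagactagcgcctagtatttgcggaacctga
Zfp949: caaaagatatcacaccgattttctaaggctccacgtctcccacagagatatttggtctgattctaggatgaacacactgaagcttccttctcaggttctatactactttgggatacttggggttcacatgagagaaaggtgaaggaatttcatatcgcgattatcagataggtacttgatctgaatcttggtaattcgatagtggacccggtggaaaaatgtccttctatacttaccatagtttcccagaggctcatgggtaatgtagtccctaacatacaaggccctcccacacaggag
They lie at chr5:104860019-104860318 (minus strand) for Zfp951, chr19:61140791-61141090 (minus) for Zfp950, chr7:42642555-42642854 (minus) for Zfp976, chr5:109996277-109996576 (plus) for Zfp932, chr4:147809739-147810038 (minus) for Zfp984 and chr9:88547770-88548069 (plus) for Zfp949. In the first 4 the same spacing from CCAAT to the word can be read. The E-box CANNTG, the core bound by Tcf4 and other basic helix-loop-helix factors, read the same on both strands and lay in 42 of 54 member promoters (77.8%), against 72.3% of all promoters of this length. CAGGTG or its complement CACCTG was in 7 (13.0% against 20.2%), CAGCTG in 8 (14.8% against 16.3%), and TATAAA on either strand in none of the 54 (13.6% of all). These matches describe letters in a window and do not show binding.

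Library totals ranged from 22291940 to 29445788 counts. Some features of the whole libraries moved with the labels. Tcf4 itself, on chromosome 18, was at 584 to 728 CPM (counts scaled to the size of the library) in WT-, 652 to 822 in Het- and 611 to 638 in KO-labelled libraries, and did not pass the test in any comparison (log2 difference -0.10 for KO against WT, adjusted p = 0.363), so the gene counts do not check the genotype labels, and groups are named by label throughout. On the first principal component the WT-labelled libraries stood apart (54.3 to 64.5) from the Het- (-24.9 to -20.3) and KO-labelled ones (-39.0 to -35.5). Reads on processed pseudogenes made up 0.253% to 0.313% of WT-labelled libraries and 0.0804% to 0.1% of the others, and mitochondrial reads 1.01% to 1.14% against 0.716% to 0.84%. KO replicate 3 held 2730 Xist counts and no other library more than 3. The 8 dorsal telencephalon markers summed to 1743 to 1995 CPM in WT, 1920 to 2176 in Het and 2038 to 2115 in KO, while the 9 ventral telencephalon and striatum markers summed to 432 to 454, 240 to 250 and 222 to 239. Sums for astrocyte (369 to 414, 171 to 181, 130 to 157) and microglia markers (76.9 to 85.6, 36.7 to 39.4, 39.8 to 40.9) were lower outside WT, and those of intermediate progenitors (38.3 to 49, 126 to 136, 236.8 to 255.6) and of the cell cycle (87.8 to 97.8, 145 to 147, 187 to 197) higher. Radial glia (756 to 821, 575 to 624, 597 to 657) and oligodendrocyte lineage sums (301 to 327, 149 to 157, 148.5 to 181) were also lower outside WT. All 4 oligodendrocyte lineage genes were called lower in both comparisons with WT. The 4 radial glia genes went both ways, with 1 higher and 1 lower in KO, and 1 higher and 2 lower in Het. Endothelium sums (90.4 to 93, 106 to 115, 106 to 117) were higher outside WT. Choroid plexus sums (0.43 to 1.94, 1.19 to 16.9, 7.87 to 26.2) were higher in KO than in WT and overlapped between WT and Het. Blood (183 to 324, 157 to 234, 224 to 283) and meninges sums (6.58 to 14.3, 12.7 to 20.5, 10.1 to 14) overlapped between WT and both other groups. No gene of these lists was at 0 in every library. In bulk tissue, more cells of a type and more RNA per cell cannot be told apart, and the part of cell composition, pseudogene reads or batch in the results below was not tested.

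Zinc finger genes of this series were on the whole higher in the Het- and KO-labelled libraries than in WT. Counts over all 64 members summed to 254.6, 262 and 254.7 CPM in the WT-labelled libraries, to 380, 372 and 324 in Het and to 368, 385 and 392 in KO, so that no library of the other genotypes reached down to WT while Het and KO overlapped. A filter on low counts (about 10 counts in 3 libraries) left 47 members to test, and 17 were not tested, 3 of them (Zfp969, Zfp967 and Zfp936) without a read in any library. In KO against WT, 32 of the 47 tested members rose and 2 fell at an adjusted p under 0.05 (edgeR quasi-likelihood test, Benjamini-Hochberg over 15271 genes). That was 68.1% higher, where 26.5% of all tested genes were higher, 26.3% lower and 52.8% called in either direction. Het against WT gave 26 higher and 1 lower (55.3% higher, against 22.5% higher, 23.4% lower and 45.9% in either direction of all genes).

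The 2 comparisons share the WT libraries and are not independent. Of the tested members, 23 rose in both, 9 in KO only, 3 in Het only, and Zfp990 fell in both; a call in 1 comparison only is not a tested difference between them. The median log2 fold change of the tested members was 0.54 in KO and 0.47 in Het, against 0.01 for all tested genes in each. Changes were modest for most: 21 members were called at least 1.5-fold higher in KO and 17 in Het, and 10 and 9 at least 2-fold. The shares of all genes past these marks were not counted. Members that passed the filter only through their high groups were selected for being low in WT. There were 4 tested members (Zfp951, Zfp984, Zfp991 and Zfp934) that reached the filter level in all 6 Het- and KO-labelled libraries but not in all 3 WT ones. Among the 37 members with a mean count of at least 50, 28 rose and 1 fell in KO (75.7% higher, against 28.9% of all genes at that level), and 24 rose and 0 fell in Het (64.9% against 24.8%). This mean is taken over all 9 libraries, so the same limit holds: Zfp951, Zfp984, Zfp930, Zfp976, Zfp947 and Zfp970, all called higher in both comparisons, reach it only through Het and KO, and their mean count in WT is below 50. The 309 Zfp genes numbered under 900 moved the same way: of 287 tested, 171 rose and 23 fell in KO (59.6%, median log2 fold change 0.38) and 149 rose and 19 fell in Het (51.9%, median 0.33).

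KO and Het differed at few members. Of the 47 tested, 2 were higher in KO than in Het, Zfp949 and Zfp934, and 0 were lower, where 16.7% of all tested genes were called (8.3% higher and 8.44% lower). Among the 37 members with a mean count of at least 50, 1 was higher (9.49% of all genes at that level). At an unadjusted p under 0.05 there were 6, and DESeq2 called 1. The median log2 difference of the tested members was 0.01, with standard errors from 0.0803 to 0.719. A p above the threshold does not show that the levels were equal.

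Counts of members whose libraries did not overlap gave a like picture. Of the 61 members with a read, all KO libraries lay above all WT libraries for 35 and below for 2, where 21.9% of all genes with a read lay above and 22% below. For Het against WT it was 27 and 3 (background 18.6% and 19.1%), and for KO against Het 4 and 4 (11.9% and 11.7%).

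**Figure D1:**
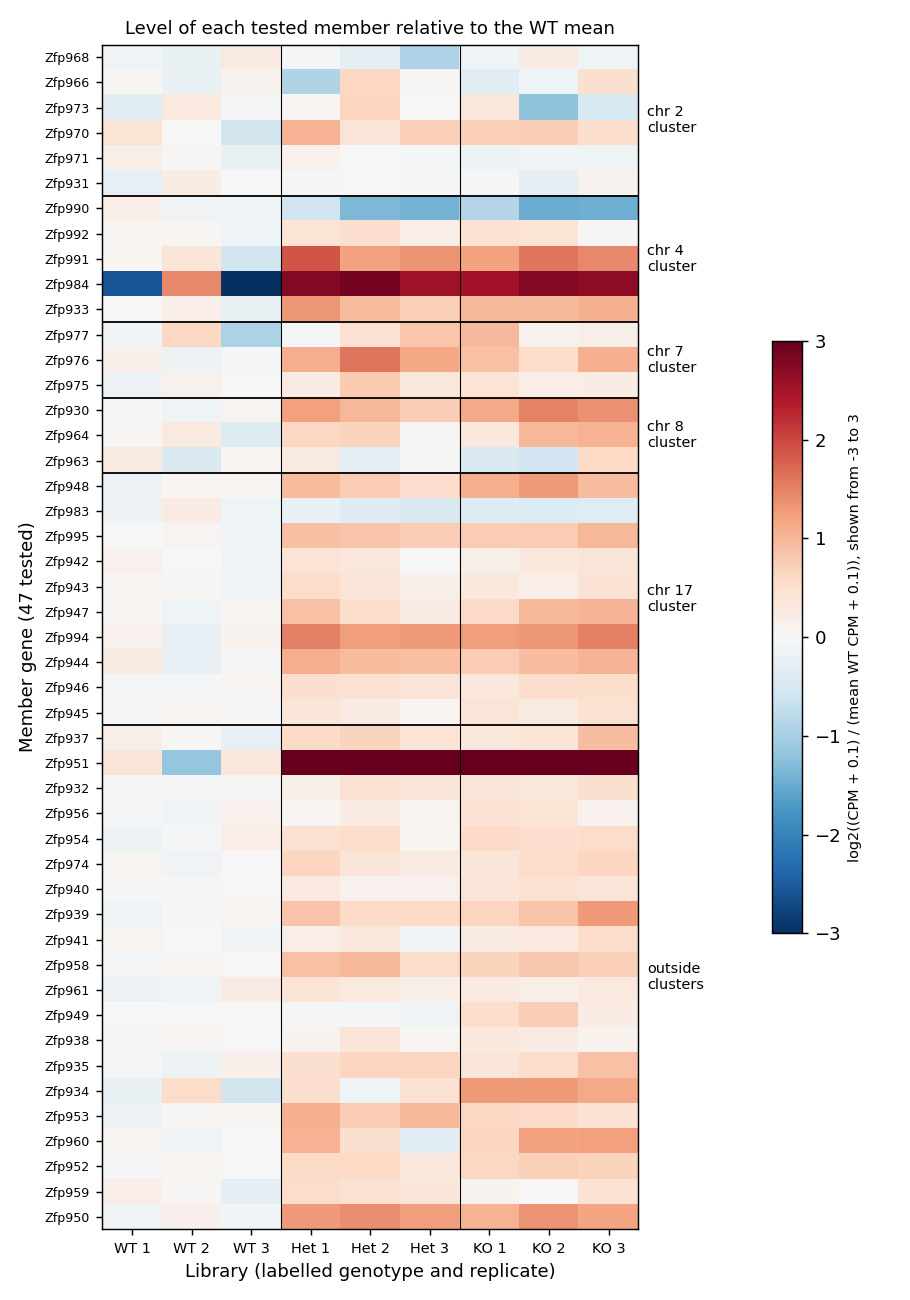
Heat map of the 47 tested members (rows, by cluster in chromosome order) in the 9 libraries (columns), as the log2 ratio of CPM + 0.1 to the mean WT CPM + 0.1, with colours limited to -3 to 3. Most rows turn from pale in WT to red in both Het and KO, Zfp951 and Zfp984 most, and Zfp990 turns blue.

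Zfp951 on chromosome 5 (104813169 to 104860070, minus strand), a KRAB zinc finger gene with 10 fingers in its reading frame, had the highest fold change of any member. It held 7, 1 and 7 counts in the WT-labelled libraries (0.316, 0.0445 and 0.301 CPM), 102, 208 and 128 in Het (4.18, 7.04 and 4.43 CPM) and 162, 132 and 166 in KO (5.65, 5.03 and 5.51 CPM). It thus held at most 7 counts in any WT library and at least 102 in the 6 others. Since no WT library reached the filter level, it was tested only through Het and KO. Its p-values do not allow for that selection. On the log2 scale it was higher by 4.58 (SE 0.35, adjusted p = 5.25e-08) in KO and by 4.54 (SE 0.35, adjusted p = 1.06e-07) in Het, which is 23.9-fold and 23.2-fold, and 0.05 (SE 0.22, adjusted p = 0.926) between KO and Het. Without WT replicate 2, the library with 1 count, these were 4.11 and 4.06. Only 7% of its words were shared with other genes. Within 0.5 Mb, the tested neighbours BC005561 (1.03 and 0.66) and D930016D06Rik (1.30 and 1.07) rose in both comparisons and Pkd2 fell in both (-0.28 and -0.27), while Spp1 fell in Het (-1.10, adjusted p = 0.0332) and gave -0.78 (adjusted p = 0.0875) in KO. The promoter of Zfp951 printed above held 1 CANNTG, 1 CCAAT and the shared 12-base word.

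The chromosome 4 cluster was the most varied. Of its 16 members only 5 passed the filter. Zfp984, Zfp991 and Zfp933 rose in both comparisons, Zfp990 fell in both and Zfp992 did not pass (median log2 fold change of the 5 members 1.02 in each).

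Zfp984, near the distal end of this cluster (147753974 to 147809788, minus strand, 11 fingers), held 1, 51 and 0 counts in the WT-labelled libraries. It held 142, 185 and 144 in Het and 140, 153 and 166 in KO, all above the highest WT library. WT replicate 2 alone among the WT libraries thus had more than 1 count, and the groups still did not overlap. In KO the difference was 2.81 (SE 0.93, adjusted p = 0.0435) on the log2 scale, and in Het 2.88 (SE 0.93, adjusted p = 0.0448), but both calls rest on the libraries used. They were lost under 12 alternatives, among them DESeq2, no filter, the replicate block and each library left out except WT replicate 2 (adjusted p 0.0623 to 0.11 in KO and 0.0641 to 0.121 in Het). Without WT replicate 2 the fitted values were 7.66 (adjusted p = 2.99e-10) and 7.73 (adjusted p = 4.51e-10), which depend on the prior count, as the remaining WT libraries held 1 count in all. Zfp984 shared 68.8% of its words with other genes.

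The same WT library stood out at neighbours of Zfp984. Zfp979 held 0, 35 and 0 counts in WT, 2, 7 and 6 in Het and 5, 8 and 7 in KO, and Zfp985 held 0, 9 and 0, then 9, 6 and 10, then 5, 3 and 2. WT replicate 2 was the highest of all 9 libraries for Zfp979 and the only WT library with a read of either gene. Neither passed the filter, and no test was made. Rex2, a gene of the same span that is no member, held 2, 13 and 0 counts in WT and at most 4 elsewhere. The strain label names a mixed background, and which alleles each pup carried on chromosome 4 was not tested.

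Zfp991 (147132038 to 147180579, plus strand) was at 0.587, 0.757 and 0.344 CPM in WT, 2.34, 1.42 and 1.59 in Het and 1.43, 1.90 and 1.69 in KO. Every Het and KO library lay above WT, by 1.57 (SE 0.31, adjusted p = 0.000407) on the log2 scale in KO and 1.65 (SE 0.31, adjusted p = 0.000353) in Het. Of its words, 88% were shared, 70.9% with Znf41-ps, an unprocessed pseudogene in the same cluster that moved likewise: it held 1, 2 and 0 counts in WT, 31, 45 and 34 in Het and 32, 31 and 34 in KO. Reads of the 2 genes cannot be fully told apart.

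Zfp933, which shared only 10% of its words, was at 7.09, 8.24 and 6.15 CPM in WT, 18.1, 13.9 and 11.8 in Het and 14.4, 14.1 and 15.1 in KO. It was thus about 2-fold higher without overlap, by 1.02 (SE 0.14, adjusted p = 2.3e-05) in KO and 1.02 (SE 0.14, adjusted p = 3.43e-05) in Het. Zfp990, at the other end of the cluster and with 49.4% of words shared, went the opposite way: it was at 1.58, 1.25 and 1.25 CPM in WT, 0.861, 0.474 and 0.450 in Het and 0.697, 0.419 and 0.432 in KO. All WT libraries lay above the others, with log2 differences of -1.38 (SE 0.33, adjusted p = 0.00188) in KO and -1.21 (SE 0.32, adjusted p = 0.00574) in Het, at 11 to 35 counts a library. Zfp992 (49.9% of words shared) was at 3.93, 3.92 and 3.44 CPM in WT, 5, 5.38 and 4.32 in Het and 5.16, 5.03 and 3.85 in KO, where KO replicate 3 fell within WT; it did not pass (0.31, SE 0.16, adjusted p = 0.111 in KO), but did without KO replicate 3 (adjusted p 0.0354). In Het it gave 0.38 (SE 0.16, adjusted p = 0.0606) and passed without Het replicate 3 or KO replicate 3 (0.0382 to 0.0406). Of the 5 other genes tested in the span, 3 rose in both comparisons and 0 fell. Among those 3, Znf41-ps (1, 2 and 0 counts in WT) and Gm20707 (0, 3 and 0) were tested only through Het and KO. They were not separate from the members either: Znf41-ps shares words with Zfp991, and Gm20707 overlaps Zfp984 on the same strand. Gm16211, with 22, 27 and 24 counts in WT, rose by 0.89 in KO and 0.93 in Het.

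**Figure D2:**
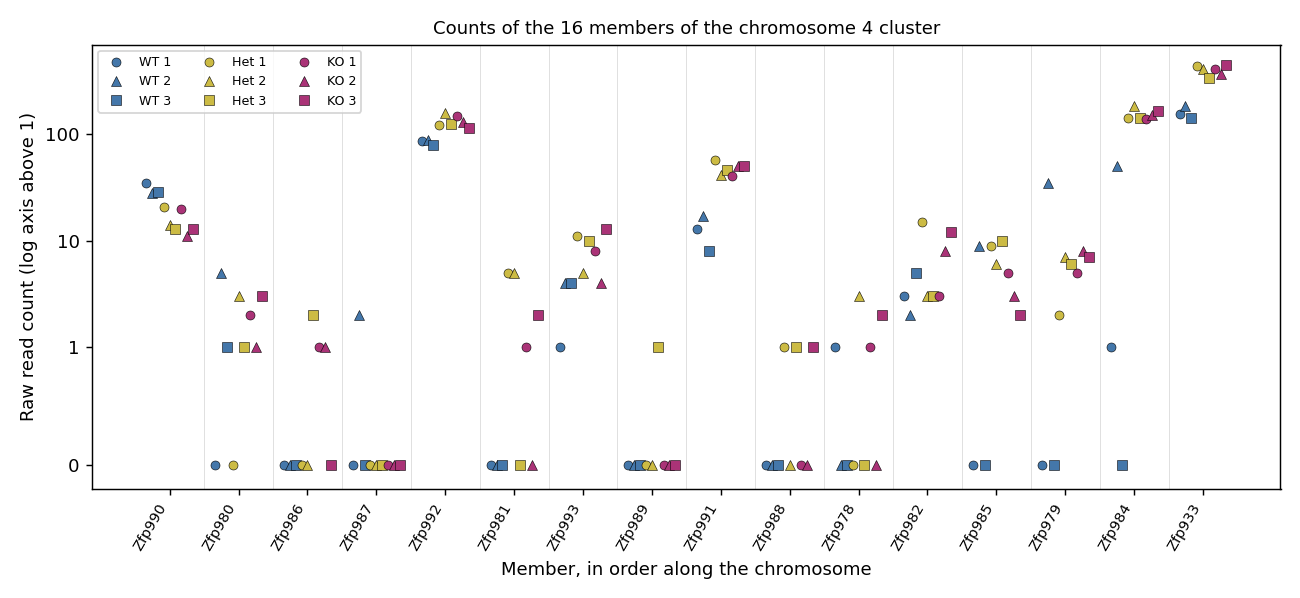
Raw read counts of the 16 chromosome 4 members, ordered along the chromosome, with 1 point per library (colour for labelled genotype, shape for replicate) and a log axis above 1. Zfp984 and Zfp979 show the WT replicate 2 triangle far above the other WT libraries, Zfp933 and Zfp991 separate WT from the rest, and the untested members other than Zfp979 hold at most 15 counts.

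In the chromosome 17 cluster all 10 members were tested, with a median of 13.6% of words shared, and 9 rose and 1 fell in KO (median log2 fold change 0.66), 7 rose and 0 fell in Het (median 0.52). Zfp994, with 17 fingers and 31.7% of words shared, was at 4.06, 3.12 and 4 CPM in WT, 10.9, 9.07 and 9.20 in Het and 9, 9.33 and 10.8 in KO. Het and KO libraries covered the same range, all above WT, by 1.38 on the log2 scale in both (SE 0.14, adjusted p = 4.82e-07 in KO and 8.58e-07 in Het). Zfp948 was at 6.46, 7.48 and 7.49 CPM in WT, 13.9, 12.2 and 10.1 in Het and 15.4, 17.4 and 13.7 in KO. Its Het libraries lay between WT and most KO libraries, with a log2 fold change of 1.12 (SE 0.13, adjusted p = 1.92e-06) in KO, 0.75 (SE 0.13, adjusted p = 0.000183) in Het and 0.36 (SE 0.12, adjusted p = 0.0544) between KO and Het, which passed without Het replicate 1 or KO replicate 3 (adjusted p 0.0202 to 0.0497 over the 4 settings where it did).

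Smaller rises passed for the other members of this cluster. Zfp946, the member with the highest level per length (mean 10.5 FPKM), was at 17.3, 17.2 and 18.3 CPM in WT, 25, 24.2 and 22.9 in Het and 21.8, 25.5 and 25.5 in KO. Its rise of 0.46 (SE 0.08, adjusted p = 0.000167) in KO and 0.45 (SE 0.08, adjusted p = 0.00033) in Het was small but without overlap. Zfp944 (0.92 in KO and 1 in Het), Zfp995 (0.86 and 0.84) and Zfp943 (0.32 and 0.37) also rose in both, and Zfp947 (0.92 and 0.59, with 36.7% of words shared) did so too, although its Het call was lost under 8 alternatives, among them DESeq2 and without Het replicate 1, Het replicate 2 or any 1 of the WT libraries (adjusted p 0.0518 to 0.164). The KO call of Zfp943 was lost with DESeq2 and without KO replicate 1, KO replicate 3, WT replicate 2 or WT replicate 3 (0.0524 to 0.12), and its Het call without Het replicate 1 or WT replicate 3 (0.074 to 0.0746). Zfp945 (0.37) and Zfp942 (0.29) rose in KO, with 0.23 and 0.27 in Het, which did not pass but did so without Het replicate 3 and, for Zfp942, without WT replicate 1 (0.00683 to 0.0463 over all settings where they did). The KO call of Zfp942 was lost with DESeq2 and without KO replicate 2, KO replicate 3, WT replicate 2 or WT replicate 3 (0.051 to 0.127). The exception was Zfp983, at 5.65, 7.48 and 5.68 CPM in WT, 5.41, 4.77 and 4.46 in Het and 4.78, 4.72 and 4.88 in KO. It fell by 0.39 (SE 0.15, adjusted p = 0.0347) on the log2 scale in KO, a call lost under 6 alternatives: no filter, DESeq2, and without WT replicate 2 or any 1 of the KO libraries (adjusted p 0.0589 to 0.206, with -0.24 without WT replicate 2). In Het it gave -0.36 (SE 0.15, adjusted p = 0.0519), which passed without Het replicate 1, WT replicate 1 or WT replicate 3 (0.0429 to 0.0497 over the settings where it did). Of 8 other genes tested in the span, 4 rose in KO and 5 in Het, and 0 fell.

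On chromosome 2, where a median of 92.2% of words was shared, few members were called. Of 6 tested members only Zfp970 rose (0.70, SE 0.25, adjusted p = 0.0282 in KO, and 0.77, SE 0.25, adjusted p = 0.02 in Het), from 1.85, 1.38 and 0.904 CPM in WT to 2.95, 1.83 and 2.32 in Het and 2.34, 2.36 and 2.03 in KO. Het replicate 2 lay just below the highest WT library, and the KO call was lost under 5 alternatives: DESeq2 and without KO replicate 1, KO replicate 2, WT replicate 2 or WT replicate 3 (adjusted p 0.055 to 0.148). The Het call was lost without Het replicate 1 or WT replicate 3 (0.0869 to 0.109). The other tested members were at log2 differences of 0.00 (Zfp968, SE 0.32), 0.06 (Zfp966, SE 0.45), -0.39 (Zfp973, SE 0.56), -0.12 (Zfp971, SE 0.18) and -0.06 (Zfp931, SE 0.17) in KO. Zfp968, Zfp966 and Zfp973 held mean counts of only 21, 12.9 and 8.2, so their values do not show equal levels. Among 16 other genes tested in that span, 2 rose and 5 fell in KO. The 12-base promoter word, which most members of this cluster carry, was found in 12 tested members. Of these, 5 rose in KO and 6 in Het (median log2 fold change 0.35 and 0.42). Of 29 tested members without it, 23 and 18 rose (median 0.54 and 0.47), where 26.5% and 22.5% of all tested genes were higher. No test was made of that difference, in which the word is mixed with the cluster: all 6 tested chromosome 2 members carry it. Among the other tested carriers, Zfp951, Zfp932, Zfp976 and Zfp950 rose in both comparisons, Zfp975 in Het only and Zfp977 in neither.

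The 2 small clusters were mixed. On chromosome 7, 1 of 3 tested members rose in KO and 2 in Het, and on chromosome 8, 2 of 3 and 1 of 3. Zfp976 on chromosome 7, with 18 fingers and 35.9% of words shared, was at 1.72, 1.38 and 1.51 CPM in WT, 3.40, 4.84 and 3.56 in Het and 2.89, 2.28 and 3.39 in KO. Het was the highest group, although its lowest library lay only just above the highest KO library, with a log2 fold change of 1.36 (SE 0.21, adjusted p = 6.09e-05) in Het and 0.90 (SE 0.21, adjusted p = 0.002) in KO, while KO and Het did not pass against each other (-0.46, SE 0.19, adjusted p = 0.112). Zfp975 (46.2% of words shared) gave 0.30 (SE 0.17, adjusted p = 0.157) in KO and rose in Het (0.49, SE 0.17, adjusted p = 0.0266), a call lost without Het replicate 2, WT replicate 1 or WT replicate 3 (adjusted p 0.0618 to 0.156). Zfp977 gave 0.60 in each (SE 0.50, adjusted p = 0.33 in KO and 0.352 in Het) and was not called. On chromosome 8, Zfp930, with 3.21% of words shared, was at 1.99, 1.78 and 2.07 CPM in WT, 4.67, 3.99 and 3.29 in Het and 4.43, 5.60 and 5.21 in KO. It rose by 1.38 (SE 0.18, adjusted p = 6.43e-06) in KO and 1.03 (SE 0.18, adjusted p = 0.000223) in Het, with no overlap with WT. Its neighbour Zfp964 rose in KO (0.88, SE 0.28, adjusted p = 0.0131, lost without KO replicate 2, KO replicate 3 or WT replicate 3, with adjusted p 0.0509 to 0.0715), and Zfp963 (41.6% of words shared) was at -0.03 (SE 0.31, adjusted p = 0.949). That value rests on KO replicate 3, at 3.95 CPM against 1.88 and 1.71 in the other KO libraries; without it the difference was -0.52 (adjusted p = 0.102). All 3 other genes tested in this span rose in both comparisons.

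Outside the clusters 20 of 21 members were tested, and 16 rose in KO and 12 in Het, with 0 lower. Zfp950 on chromosome 19, with 17 fingers, was at 3.61, 4.32 and 3.66 CPM in WT, 9.47, 10.4 and 9.30 in Het and 8.12, 10.1 and 8.93 in KO. Both groups lay above WT by more than 2-fold (log2 1.22, SE 0.13, adjusted p = 9.63e-07 in KO, and 1.33, SE 0.13, adjusted p = 6.21e-07 in Het). Zfp953 on chromosome 13 was at 0.497, 0.579 and 0.602 CPM in WT, 1.27, 1.02 and 1.21 in Het and 0.906, 0.876 and 0.797 in KO. It rose in Het (1.05, SE 0.28, adjusted p = 0.00595), while KO against WT gave 0.61 (SE 0.29, adjusted p = 0.0872), although the KO libraries lay above WT and below Het. Zfp960 on chromosome 17, 86.8% of whose words also occurred in Zfp97, was at 0.768, 0.668 and 0.732 CPM in WT, 1.60, 1.05 and 0.553 in Het and 1.19, 1.79 and 1.83 in KO. Its Het libraries ran from below WT to within KO, and only KO against WT passed (1.14, SE 0.34, adjusted p = 0.00884). Without Het replicate 3 Het against WT passed too (adjusted p 0.0406), and without Het replicate 1 KO against Het (adjusted p 0.0484).

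Most of the 5 members with the highest level per length lay here. Zfp952 on chromosome 17 (mean 10.5 FPKM) was at 15.1, 16.1 and 15.4 CPM in WT, 23.4, 23.6 and 19.5 in Het and 24, 25.6 and 24.7 in KO, a rise of 0.67 (SE 0.09, adjusted p = 5.59e-06) in KO and 0.51 (SE 0.09, adjusted p = 0.000146) in Het without overlap. Zfp932 (9.2 FPKM) was at 9.84, 9.31 and 9.90 CPM in WT, 10.9, 13.1 and 12.5 in Het and 12.6, 12.3 and 13.4 in KO. It rose by 0.40 (SE 0.10, adjusted p = 0.00315) and 0.33 (SE 0.10, adjusted p = 0.0141), the latter lost without Het replicate 2 (adjusted p 0.0504), and shared 44.2% of its words with Gm15446. Both genes kept WT below every other library. Zfp954 (8.41 FPKM) was at 12, 12.8 and 15.5 CPM in WT, 18.4, 19.8 and 14.1 in Het and 19.9, 19 and 19.6 in KO. It rose by 0.54 (SE 0.12, adjusted p = 0.0014) in KO and by 0.37 (SE 0.12, adjusted p = 0.0192) in Het, where Het replicate 3 lay among the WT libraries and the call was lost without Het replicate 1, Het replicate 2, WT replicate 1 or WT replicate 2 (0.0518 to 0.084). Zfp956 (8.29 FPKM), which has 6 fingers and no match to the KRAB pattern, was at 14.6, 14.4 and 16.7 CPM in WT, 16, 18 and 15.9 in Het and 20.6, 20.3 and 16.6 in KO. KO replicate 3 lay just under the highest WT library, and the KO call (0.33, SE 0.10, adjusted p = 0.0113) was lost without KO replicate 1 or KO replicate 2 (0.0522 to 0.0622).

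The 2 members that differed between KO and Het were also unclustered. Zfp949 on chromosome 9 (88548020 to 88571061, plus strand, 11 fingers, 1.34% of words shared) was at 13.2, 13.1 and 13.1 CPM in WT, 12.9, 12.7 and 12.1 in Het and 18.9, 22.1 and 15.4 in KO. WT and Het libraries lay close together and every KO library above them. It was higher in KO than in Het by 0.58 (SE 0.11, adjusted p = 0.00145) and than in WT by 0.51 (SE 0.11, adjusted p = 0.000902), with -0.07 (SE 0.11, adjusted p = 0.648) between Het and WT, and the KO calls held under all alternatives run. Its promoter, printed above, held no CCAAT and not the 12-base word. Zfp934 on chromosome 13 was at 0.406, 0.757 and 0.301 CPM in WT, 0.738, 0.440 and 0.692 in Het and 1.32, 1.33 and 1.2 in KO. Here too only KO stood apart: KO exceeded Het by 1.05 (SE 0.32, adjusted p = 0.0307) and WT by 1.39 (SE 0.34, adjusted p = 0.00246). The difference from Het was lost under 7 settings, DESeq2, the replicate block and without Het replicate 2, Het replicate 3 or any 1 of the KO libraries (0.0515 to 0.14), at low counts, with 45% of words shared and 4 annotated genes overlapping it on the same strand.

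Some members showed no call with small errors. Zfp938 was at 8.90, 9.71 and 9.17 CPM in WT, 9.96, 11.9 and 9.61 in Het and 11.6, 11 and 9.89 in KO (log2 fold change 0.23, SE 0.11, adjusted p = 0.108 in KO). Zfp961 was at 5.92, 6.24 and 7.88 CPM in WT, 8.77, 8.22 and 7.57 in Het and 8.02, 7.73 and 8.13 in KO (0.25, SE 0.13, adjusted p = 0.115 in KO). KO lay just above WT for Zfp938 and Het overlapped with it, while for Zfp961 WT replicate 3 lay within both other groups. Without WT replicate 3, Zfp961 passed in both comparisons, as it did with limma on FPKM (adjusted p 0.0274 to 0.0422 in KO).

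**Figure D3:**
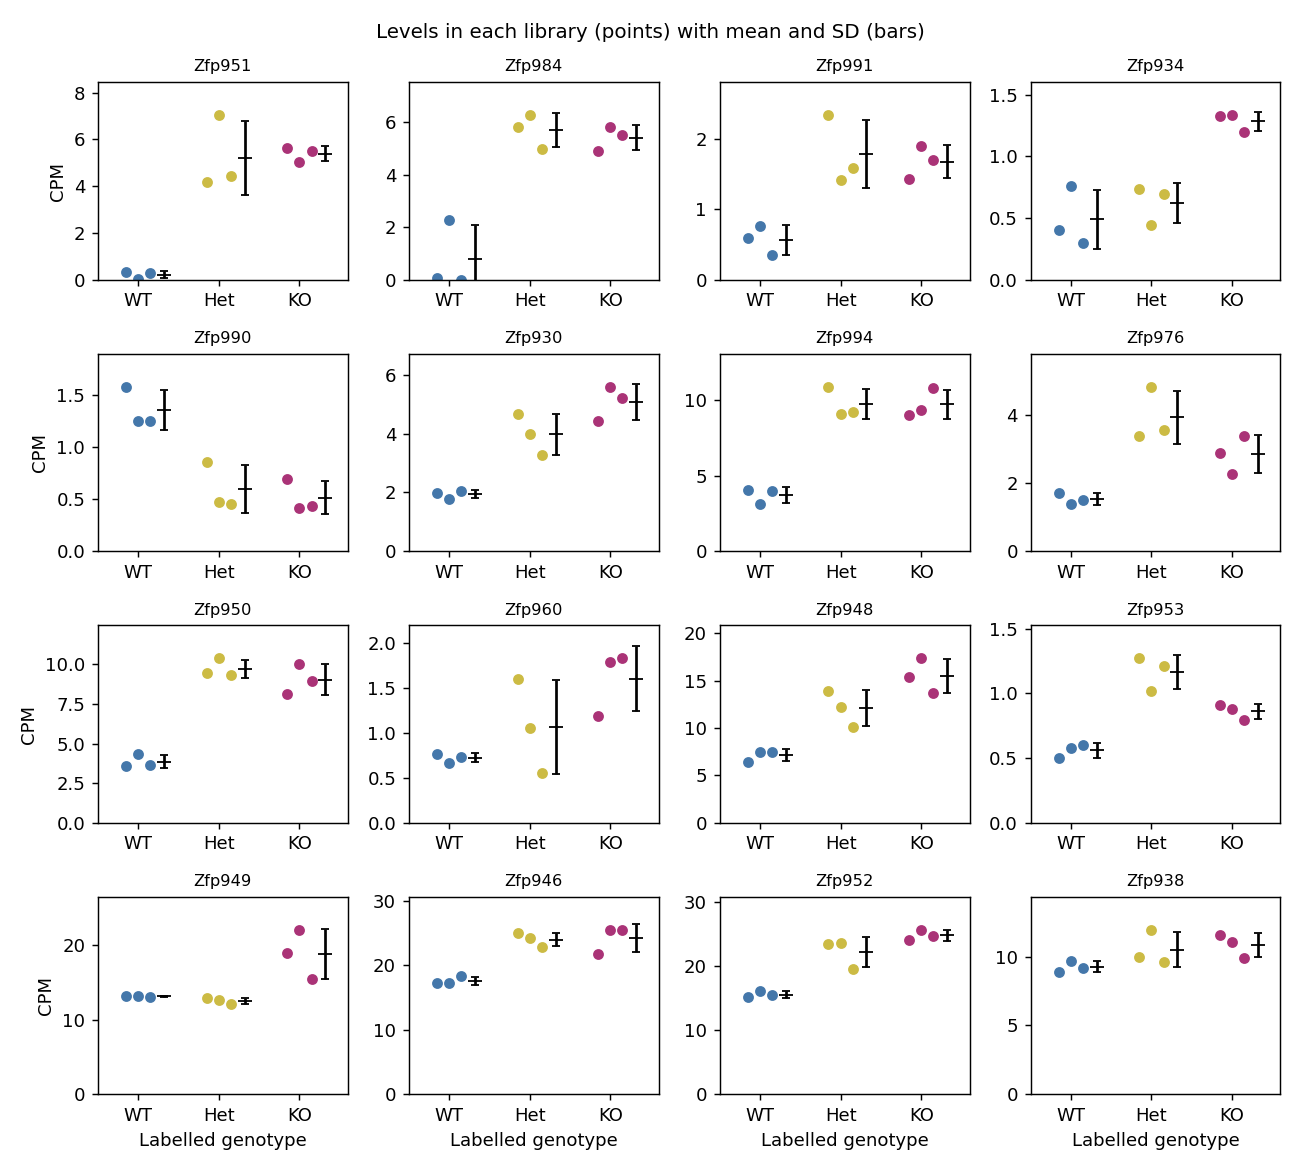
CPM of 16 members in each library (points, coloured by labelled genotype), with the mean and SD of the 3 libraries (bars; the lower end of the Zfp984 WT bar falls below the axis). Zfp951, Zfp994 and Zfp950 show WT apart from both other groups, Zfp949 and Zfp934 show KO apart, and Zfp990 is highest in WT.

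Rises were found at all levels of expression. Members were low genes on the whole, with a median of 2.88 FPKM over the tested members against 9.63 for all tested genes. Of 12 tested members under 1 FPKM 5 rose in KO (median log2 fold change 0.61), of 17 from 1 to 4 FPKM 11 did (median 0.60), and of 18 above 4 FPKM 16 did (median 0.52). Of 43 tested members with the KRAB pattern 28 rose in KO, as did all 4 without it. Of all tested genes, at any level, 26.5% were higher in KO, and shares of all genes within each level were not counted. Of the 7 tested members with under 5% of words shared, 6 rose in KO and 5 in Het when only such genes were fitted. Among the 10256 genes of that fit, 28.1% were higher in KO and 25.2% in Het. Annotated genes on the opposite strand overlapped 10 tested members, and whether counting used the strand was not given in the sources used here.

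**Figure D4:**
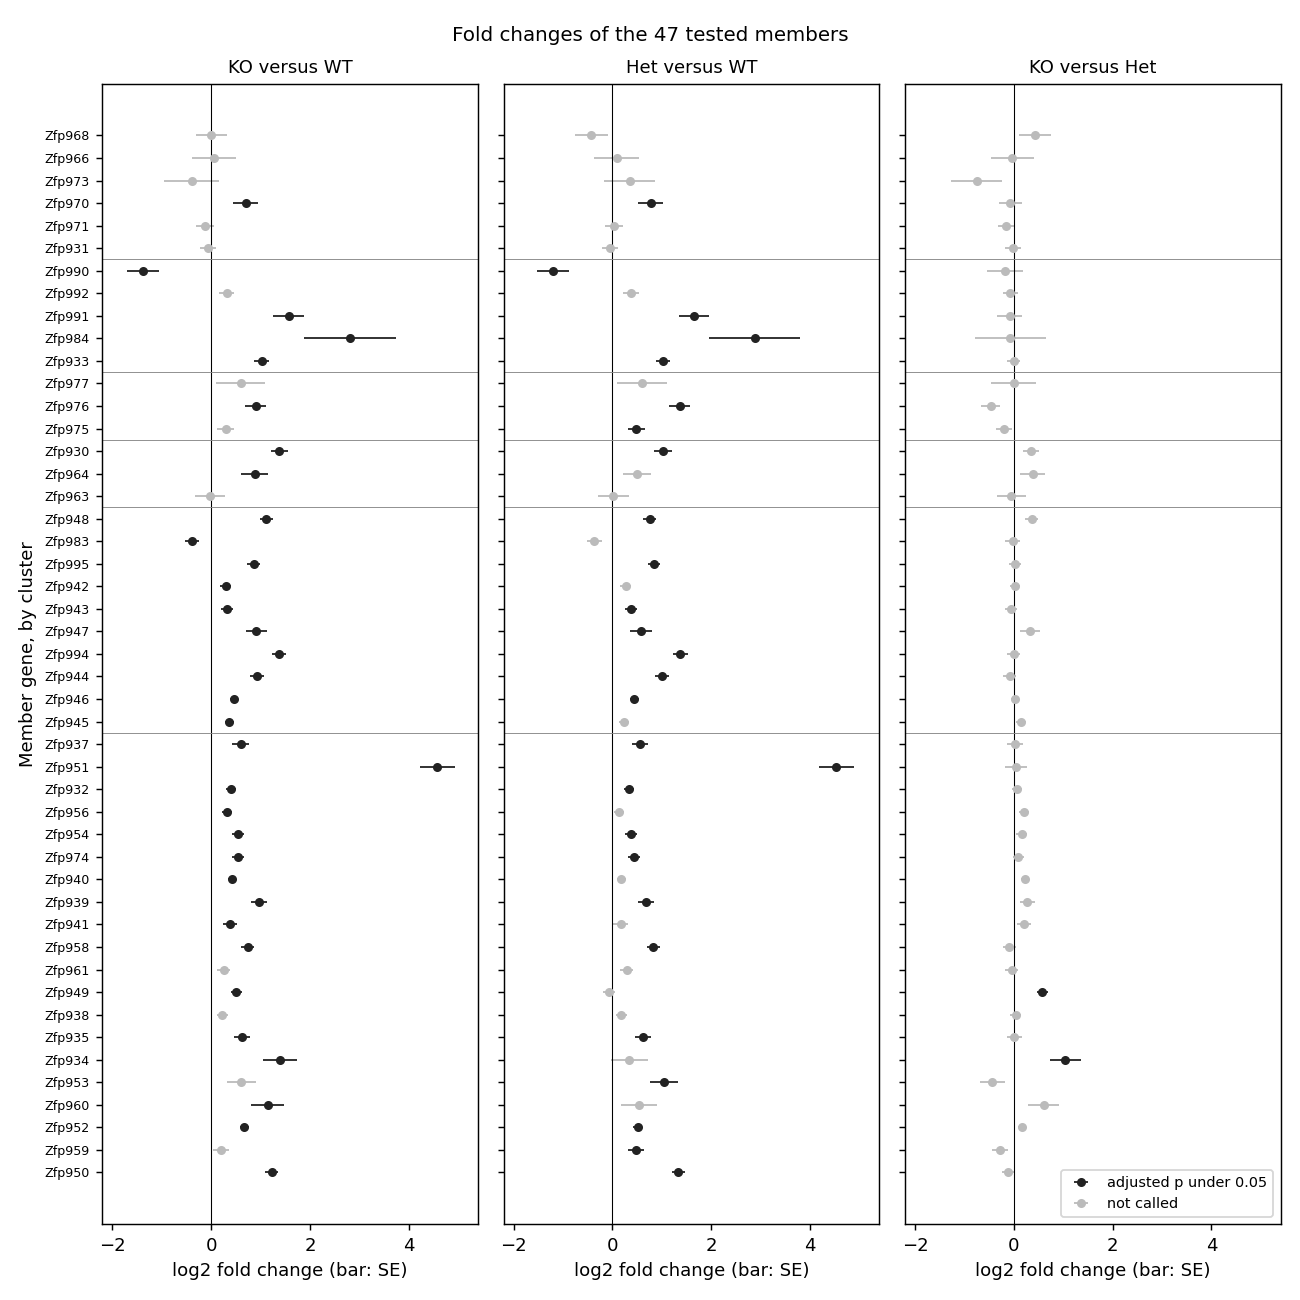
Log2 fold change and SE of the 47 tested members in the 3 comparisons (rows by cluster; black for adjusted p under 0.05, grey for not called). Black points lie mostly to the right of 0 in KO against WT (32 higher, 2 lower) and Het against WT (26 higher, 1 lower), and KO against Het has 2.

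Partners through which KRAB zinc finger proteins act, listed together with the zinc finger gene Zfp57, were measured in the same libraries. Of 27 listed genes, all tested, 16 rose and 4 fell in KO (median log2 fold change 0.24), where 26.5% of all tested genes were higher and 26.3% lower. In Het 13 rose and 5 fell (median 0.14; all genes 22.5% and 23.4%), and 4 were higher and 1 lower in KO against Het (all genes 8.3% and 8.44%). Trim28, the scaffold bound by KRAB domains, was at 419 ± 22.6 CPM in WT, 469 ± 8.35 in Het and 506 ± 23.2 in KO (SD, n = 3), a rise of 0.27 (SE 0.06, adjusted p = 0.000547 by edgeR's quasi-likelihood test) in KO and 0.16 in Het. Setdb1, the histone methyltransferase it recruits, went slightly the other way (-0.16 and -0.14, both called). Atf7ip, also on the list, rose by 0.36 in KO and 0.52 in Het (both called). Zfp57, itself a KRAB zinc finger gene that guards imprinted regions, rose by 0.97 (SE 0.07) in KO and 0.64 in Het, and was higher in KO than in Het by 0.33. Mphosph8, a subunit of the silencing complex HUSH, fell by 0.60 in KO and by 0.47 in Het. Other listed genes of that complex did not follow it: Fam208a rose (0.45 and 0.36) and Pphln1 was not called (0.005 and 0.11). The DNA methyltransferase Dnmt3a fell by 0.40 and 0.44. Uhrf1, which guides maintenance methylation (0.58 and 0.39), and Morc3 (0.48 and 0.50) rose in both. Many of these genes are expressed in most cells, and the cell cycle markers rose in the same libraries; what part that had here was not tested.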

How the data were processed

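Whole-gene read counts and FPKM of 9 RNA-seq libraries (3 WT, 3 Het, 3 KO) were used as deposited by the authors; raw counts per gene were the input of all main tests, and the authors' FPKM values served for levels per length and as an alternative. Per the submitters' processing notes the tools were HTSeq 0.6.1, TopHat2 2.0.9, DESeq 1.10.1 and, with build mm10, Bowtie2 2.0.6, in roles not stated; strand and multi-mapping settings were not given in the sources used here. Groups follow the labels. Members were matched through GENCODE M21 (40254 of 41128 identifiers had a symbol). RefSeq lists 62 symbols in the range, of which 1, Zfp996, had no match by symbol.

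Counts were fitted with edgeR 4.0.16 (R 4.3.3; TMM factors, filterByExpr with a minimum count of 10 and a total of 15, robust quasi-likelihood F-test on all 9 libraries, 6 residual degrees of freedom), with Benjamini-Hochberg adjustment over the 15271 genes tested and a threshold of 0.05. Fold changes are log2, with edgeR's default prior count. A prior count of 2 was used only for the log2 CPM behind the principal components and the correlations of deviations. Alternatives used DESeq2 1.42.0, limma 3.58.1 on log2(FPKM + 1) and log2(FPKM + 0.1), other scaling factors and filters, a replicate block, each library left out, and genes with under 5% of 31-base words shared; restriction to a mean count of at least 50 and leaving out the chromosome 4 cluster were added after seeing the data. Library totals of 22291940 to 29445788 limit members with few reads. On simulated KO against WT counts of 15271 genes the fit recovered 68.7%, 80.6% and 95.5% of genes changed 1.5-, 2- and 4-fold, with 6 false calls. Only 67, 67 and 66 genes were changed there, whereas 52.8% of genes were called in the data. These rates therefore do not carry over to the data.

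Per-library values are given for up to 12 members with the largest called change and no overlap, up to 5 called between KO and Het, the 5 with the highest mean FPKM, 3 uncalled with the smallest SE, and Zfp984; Zfp933, Zfp970, Zfp983, Zfp979 and Zfp985 were added after their values were seen. The members, lists and rules were chosen with earlier results of these data known. Reading frames, fingers and a KRAB pattern were searched in GENCODE transcripts with Python 3.11.15; promoters are from RefSeq.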

Additional observations from a re-analysis of the deposited data

How the results depend on the processing

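No call of a member in KO against WT or Het against WT changed direction under any alternative run. Of 34 members called in KO against WT, 25 were called under every alternative, 9 were lost under at least 1 and 2 others were gained; in Het against WT these were 18 of 27, 9 and 7, and in KO against Het 1 of 2 (Zfp949), 1 and 3. With each library left out in turn, 28 to 33, 22 to 30 and 1 to 5 members were called; in KO against Het it was 5 without Het replicate 1 and 1 without Het replicate 2, Het replicate 3, KO replicate 1 or KO replicate 2. Fitting only genes with under 5% of words shared left 7 tested members, of which 6 were called in KO and 5 in Het. Of all genes in that fit, 55.5% were called in KO and 48.9% in Het. Fewer members tested account for the lower counts. KO against Het gave 1 under DESeq2 and 1 among members with a mean count of at least 50; the cause of the former was not tested. Leaving out the chromosome 4 cluster gave 30, 23 and 2.

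With the replicate number as a block the counts were 33, 25 and 1. Deviations of same-numbered libraries correlated between -0.106 and 0.0844, and those of differently numbered libraries between -0.137 and 0.0982. No pairing was used. These correlations cannot show whether same-numbered libraries shared a litter or batch. Members with few reads are limited by depth: 17 could not be tested, and a p above the threshold at such counts does not show equal levels. Shared words make assignment among near copies uncertain, most on chromosomes 2 and 4.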
